A study of Mus musculus with 14 samples.

Results

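The genes of cholesterol and fatty acid synthesis were compared between wild-type and Morrbid-/- CD8 T cells activated for 6 h. The set held 31 genes, chosen by symbol from the deposited tables, which list 15036 genes in all, and each of the 31 was present in both tables. By role, 6 catalyse the mevalonate steps, 11 convert farnesyl diphosphate through squalene to cholesterol, 5 belong to the SREBP control circuit, 6 make or modify fatty acids, and 3 move sterols within or out of the cell.

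Animal cells build cholesterol from acetyl-CoA by way of mevalonate and squalene, and they build palmitate and longer fatty acids from the same precursor. SREBP transcription factors switch these genes on when the endoplasmic reticulum is low in sterols, SCAP escorts them to the Golgi for cleavage, and INSIG proteins hold SCAP back when sterols are plentiful. Liver X receptors, activated by oxysterols, switch on the exporters ABCA1 and ABCG1 and the gene of SREBP-1. T cells that leave quiescence are known to raise the SREBP programme as they grow new membrane, and in macrophages type I interferon is known to lower sterol synthesis.

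All cells were CD8 T cells from spleens of C57BL/6 mice, sorted as naive by high CD62L and low CD44, and all received 1 µg/mL plate-bound anti-CD3 (clone 145-2C11) and 1 µg/mL soluble anti-CD28 (clone 37.51). The 4 groups were wild type without IFN-beta (3 libraries), Morrbid-/- without IFN-beta (3), wild type with 20 ng/mL IFN-beta (4) and Morrbid-/- with 20 ng/mL IFN-beta (4), 14 libraries in all. Morrbid, a long noncoding RNA, is encoded beside Bcl2l11. How it was deleted is not in the labels, nor whether replicates came from separate animals, so p-values measure the spread between these libraries, which may be technical. Each library used 100 ng of total RNA. No unstimulated cells were analysed here.

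Library depth was 1747634 to 2963149 recovered reads without IFN-beta and 5788070 to 7355337 with it. With IFN-beta every library labelled Morrbid-/- was deeper (7132515 to 7355337) than every wild-type library (5788070 to 6918633). Depth and genotype cannot be told apart there, and the part of depth in the results below was not tested. The few reads of Morrbid without IFN-beta, 8 over the wild-type libraries and 18 over those labelled Morrbid-/-, did not show the loss that the labels give. With IFN-beta Morrbid was not listed under the symbol searched, so its loss could not be checked there. Directions below therefore follow the labels. Of 8 CD8 T cell markers, all 8 were present, with a summed normalized count of 7728 to 9262 in wild type and 7822 to 8393 in libraries labelled Morrbid-/- without IFN-beta, and of 26020 to 26770 and 24740 to 27030 with it. Among them Lef1 (0.52 on the log2 scale, limma adjusted p = 7.59e-05) and Ccr7 (0.51, adjusted p = 1.68e-04), both markers of naive cells, were higher in libraries labelled Morrbid-/- with IFN-beta; their part in the results below was not tested. Markers of B cells (2 of 6 listed), dendritic cells (3 of 4 listed without and 1 with IFN-beta) and CD4 or regulatory T cells (2 of 3 and 1 of 3) each summed to at most 28.4 in any library. Myeloid markers (5 of 7 listed) summed to 8.41 to 24.1 in wild type and 4.09 to 10.5 in libraries labelled Morrbid-/- without IFN-beta. Of 4 erythroid and platelet markers none was listed. The 4 NK cell markers summed to 41.6 to 65.0 in wild type and 83.8 to 99.3 in libraries labelled Morrbid-/- without IFN-beta, with Ncr1 at 0. With it they summed to 1207 to 1391 and 1359 to 1774 (2 of 4 listed). Most of this was Eomes, which activated CD8 T cells also express. The 1 NK cell marker tested was called higher in libraries labelled Morrbid-/- without IFN-beta (0.84 on the log2 scale) and was not called with it (0.22). For the difference of the genotype effect between settings, 1 of the 8 CD8 T cell markers was called, as higher. The part of these markers in the results below was not tested. Mitochondrial 16S rRNA took 11.6% to 18.9% of the reads without IFN-beta and 9.05% to 12.0% with it.

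The promoters of the genes that the results turn on are shown with the motifs of the factors named above, so that the control regions can be read beside the values. Of the 31 genes, 24 had a window in the RefSeq table of GRCm38.p6; Fdps, Fdft1, Sqle, Scd1, Scd2, Stard4 and Abcg1 did not. The 250 bases before each annotated start were searched on both strands, and positions count back from the start. Each sequence is given 5′ to 3′ on the gene's strand, cut where an annotated exon of the gene begins, with motif matches in capitals; a CCAAT on the other strand reads ATTGG. Hmgcs1, chr13:119690101-119690350 (+), is shown as the member with the full sterol regulatory element. Cyp51, chr5:4104747-4104947 (-), Insig1, chr5:28071162-28071362 (+), and Elovl6, chr3:129532136-129532354 (+), are shown as the members called lower by genotype. In the results below they were lower in libraries labelled Morrbid-/- than in wild type, both with IFN-beta.
Hmgcs1: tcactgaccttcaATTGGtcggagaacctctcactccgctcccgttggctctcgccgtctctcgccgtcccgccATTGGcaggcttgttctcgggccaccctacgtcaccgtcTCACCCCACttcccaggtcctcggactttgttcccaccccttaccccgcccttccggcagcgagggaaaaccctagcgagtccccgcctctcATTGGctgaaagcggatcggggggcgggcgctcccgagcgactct
Cyp51: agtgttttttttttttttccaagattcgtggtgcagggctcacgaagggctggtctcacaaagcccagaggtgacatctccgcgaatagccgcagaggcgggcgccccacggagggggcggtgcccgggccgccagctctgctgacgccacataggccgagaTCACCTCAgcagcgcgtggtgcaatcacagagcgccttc
Insig1: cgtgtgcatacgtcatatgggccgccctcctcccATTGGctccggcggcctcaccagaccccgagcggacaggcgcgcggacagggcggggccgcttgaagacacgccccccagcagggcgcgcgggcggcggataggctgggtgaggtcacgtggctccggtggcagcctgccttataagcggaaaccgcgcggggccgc
Elovl6: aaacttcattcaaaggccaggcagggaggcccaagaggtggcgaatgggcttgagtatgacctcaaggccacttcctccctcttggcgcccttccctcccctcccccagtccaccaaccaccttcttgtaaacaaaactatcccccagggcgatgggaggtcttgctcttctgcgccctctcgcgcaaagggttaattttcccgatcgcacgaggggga

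The sterol regulatory element TCACNCCAC was found in 1 of 24 members, Hmgcs1 at -137, against 1.225% of 27025 genes. A looser form, TCACNNCA, chosen after the windows had been read and matched also by the first, was found in 9 of 24 members against 12.984% of genes; the Cyp51 match lies at -88. CCAAT, the box bound by NF-Y, was found in 19 of 24 members against 37.495% of genes. The Hmgcs1 window holds 3 of them and the Insig1 window 1. The Cyp51 window holds 1, at -29, in the part not shown. No searched motif was found in the Elovl6 window, which says only that these letters are not in it.

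The liver X receptor element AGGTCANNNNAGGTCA was found in 0 of 24 members, against 0.015% of genes. A looser form, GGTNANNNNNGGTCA, also chosen after the windows had been read, was found in 3 of 24 members against 0.189% of genes. The 3 matches are printed with 5 bases on either side, because the exporter Abca1 shared them with the regulator Srebf1 and the synthase gene Fasn. All 3 lie inside the RefSeq bounds of their genes. They come before the annotated start whose window was searched but after the outermost start of the gene. The 3 genes lie on the minus strand, and the motif reads on the strand opposite to the one shown: Abca1 at chr4:53159943-53159967, Srebf1 at chr11:60210634-60210658 and Fasn at chr11:120824753-120824777.
Abca1: gcgttTGACCGGTAGTAACCccggc
Srebf1: gacagTGACCGCCAGTAACCccagc
Fasn: cacgaTGACCGGTAGTAACCccgcc
The capitals mark the match. These matches are descriptions of the reference sequence, and no binding was measured.

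The first question was whether the genotype changed these genes in cells activated without IFN-beta. In that setting 27 members had a mean of at least 10 normalized counts and were tested, and 0 passed limma's test at an adjusted p of 0.05 (Benjamini-Hochberg over all genes), where 0.635% of 9290 genes passed (0.538% higher and 0.0969% lower). At an unadjusted p of 0.05 there were 2 members, Pmvk and Msmo1, against 6.1% of all genes, and edgeR and DESeq2 on the recovered reads called 0 members each. The members' median log2 difference, libraries labelled Morrbid-/- minus wild type, was -0.03, beside -0.01 over all genes tested. In 4 members all libraries labelled Morrbid-/- lay below all wild-type libraries (Pmvk, Msmo1, Srebf2 and Elovl6) and in 0 above, where 10.9% of genes did not overlap (5.39% below and 5.53% above). Mvk, Mvd, Tm7sf2 and Scd1 were too low to test. In bulk RNA, fewer cells of a type and less RNA per cell cannot be told apart.

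With IFN-beta, the same comparison gave 4 called members among 27 tested: the fatty acid elongase Elovl6, the sterol demethylase Cyp51 and the SREBP brake Insig1 fell, and the cholesterol exporter Abca1 rose. Of 9964 genes tested there, 10.1% were called (5.25% higher and 4.84% lower), and the members' share of 14.8% is near it. After rescaling to equal totals 730 genes were called higher and 344 lower, against 523 and 482, and the same 4 members. At an unadjusted p of 0.05 the same count of 4 stood against 24.4% of all genes. The members' median was -0.07, beside 0.00 over all genes tested. The libraries of the genotypes did not overlap in 4 members (Abca1 above; Msmo1, Insig1 and Elovl6 below), where 15.2% of genes did not overlap (7.58% above and 7.6% below). Mvk, Mvd, Dhcr7 and Scd1 were too low to test.

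**Figure D1:**
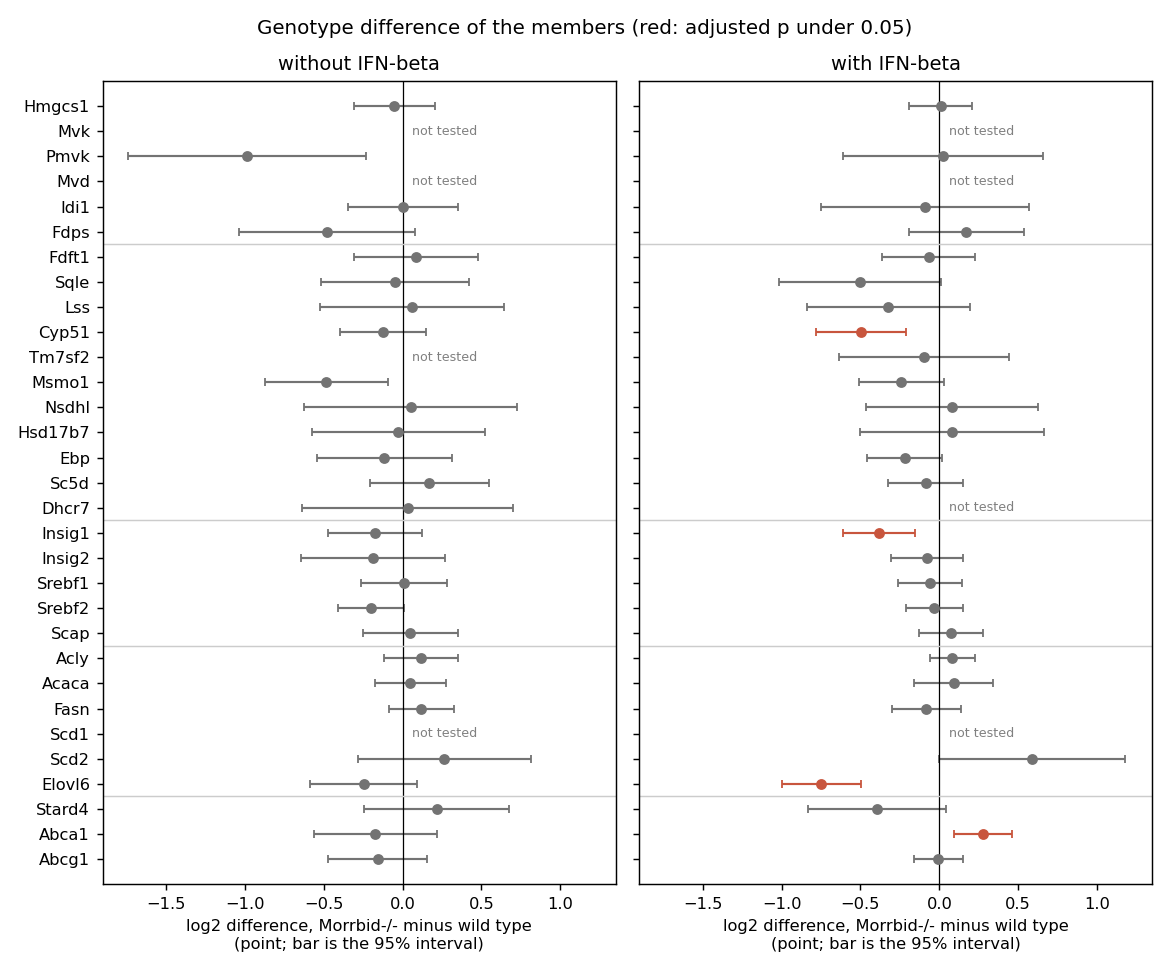
Log2 difference of each member (Morrbid-/- label minus wild type, with its 95% interval) without IFN-beta (left, n = 3 libraries per genotype) and with it (right, n = 4), in order of role, with lines between the roles and red for an adjusted p under 0.05. No member is red on the left; on the right Cyp51, Insig1 and Elovl6 lie below 0 and Abca1 above, and the intervals of most other members cross 0.

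Whether the genotype effect itself differed between the settings was tested with the interaction term of one limma fit over the 14 libraries, for the 26 members that averaged 10 or more normalized counts in each table. It called 0 of the 26, where 1.33% of 9078 genes were called (0.441% higher and 0.892% lower); at an unadjusted p of 0.05 it held 3 members (Elovl6, Pmvk and Abca1) against 12% of all genes, and edgeR called 0. The calls with IFN-beta are therefore not shown to be specific to it. The signs of the 26 differences matched between the settings in 14, or 53.9%, beside 54.5% of all 9078 genes.

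The mevalonate enzymes, which turn acetyl-CoA units into the isoprenoid farnesyl diphosphate, showed no called change in either setting (0 of 4 tested). Hmgcs1, the synthase that commits carbon to the pathway, held 160.0, 184.2 and 168.9 normalized counts in wild type and 183.5, 166.3 and 146.3 in libraries labelled Morrbid-/- without IFN-beta. With IFN-beta it held 199.4, 226.3, 245.2 and 204.1 against 219.9, 221.8, 226.5 and 208.9. The genotypes overlapped in both settings, and with IFN-beta the log2 difference of 0.01 had a 95% interval of -0.19 to 0.21. This is the gene whose promoter, printed above, holds the full sterol element.

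Pmvk, phosphomevalonate kinase, had the smallest p of the members without IFN-beta. Its wild-type libraries held 18.8, 16.6 and 13.8 normalized counts and those labelled Morrbid-/- held 8.11, 9.17 and 6.14, resting on 55 and 21 reads. All libraries labelled Morrbid-/- were the lower ones, at 7.81 ± 1.54 against 16.4 ± 2.52 (SD, n = 3 each). The log2 difference of -0.99 (SE 0.36) did not pass limma's test (adjusted p = 0.568). With IFN-beta the groups overlapped at 11.8 to 25.7 and 11.9 to 21.9, with a difference of 0.03 and an interval of -0.61 to 0.66. The change of the effect between settings was 1.01 (SE 0.45; limma adjusted p = 0.365).

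Fdps, which makes farnesyl diphosphate, was at 46.5, 31.2 and 33.6 in wild type and 36.5, 27.5 and 17.4 in libraries labelled Morrbid-/- without IFN-beta, so the groups overlapped. The difference was -0.48 (SE 0.27; limma adjusted p = 0.868) there and 0.17 (interval -0.19 to 0.53) with IFN-beta, and the effects differed by 0.65 (SE 0.32; adjusted p = 0.418). Fdps values are uncertain: 1124 of its 1453 exonic bases in GENCODE vM21 overlap another gene model on its own strand, and 23.5% of its 75-base stretches occur in other genes. Idi1, the isomerase of the pathway, differed by 0.00 without and by -0.09 with IFN-beta. Mvk stayed at 2.08 to 11.3 and Mvd at 0.899 to 14.3 normalized counts over all libraries. Mvd, the decarboxylase, was the lower in libraries labelled Morrbid-/- with IFN-beta on average (2.74 ± 1.98 against 8.58 ± 4.34; SD, n = 4 each), but the libraries overlapped, it rested on 12 and 32 reads, and it was not tested.

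Among the 11 enzymes from squalene synthesis to cholesterol, 10 were tested in each setting. Without IFN-beta 0 were called, and with it 1 was lower in libraries labelled Morrbid-/-. The median difference of those tested was 0.00 without IFN-beta and -0.16 with it. Cyp51, lanosterol 14-alpha-demethylase, was the called one. With IFN-beta its wild-type libraries held 145.1, 147.5, 121.4 and 112.3 normalized counts and those labelled Morrbid-/- held 96.2, 115.5, 77.3 and 84.8. The second library labelled Morrbid-/- lay above the lowest wild-type library, so the groups overlapped at 1 value. The mean fell from 132 ± 17.4 to 93.5 ± 16.6 (SD, n = 4 each). On the log2 scale this was -0.50 (SE 0.14), with a limma adjusted p of 0.0228.

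Cyp51 did not pass when any one of wild-type replicate 1 (adjusted p = 0.0819), wild-type replicate 2 (0.0837), or replicates 3 (0.0864) or 4 (0.0554) labelled Morrbid-/- was left out, and it did not pass with the 16S rRNA share as a covariate (0.0584) or without the mean-variance trend (0.105). Without IFN-beta Cyp51 was at 206.5, 153.0 and 192.6 in wild type and 163.2, 187.3 and 153.5 in libraries labelled Morrbid-/-, a difference of -0.12 with an interval of -0.40 to 0.15. Of its exonic bases, 166 overlap Akap9 on the other strand, and the strand setting of the counting is not given in the sources used here.

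Msmo1, the methylsterol oxidase that acts after Cyp51, was lower in all libraries labelled Morrbid-/- than in all wild-type libraries of the same setting, in both settings, without passing the test in either. Without IFN-beta it held 106.4, 68.7 and 73.4 in wild type and 66.9, 60.2 and 48.1 in libraries labelled Morrbid-/-, a difference of -0.48 (SE 0.19; limma adjusted p = 0.625). With IFN-beta it held 92.0, 88.1, 98.1 and 88.9 against 77.0, 82.5, 74.6 and 75.7, a difference of -0.24 (SE 0.13; adjusted p = 0.262). The means were 82.8 ± 20.5 and 58.4 ± 9.54 (SD, n = 3 each) in the first setting and 91.8 ± 4.55 and 77.4 ± 3.50 (SD, n = 4 each) in the second.

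Sqle, squalene epoxidase and a rate-controlling enzyme of the later pathway, was at 28.3, 21.5, 33.9 and 37.1 in wild type and 16.5, 24.8, 25.2 and 17.3 in libraries labelled Morrbid-/- with IFN-beta. The groups overlapped, and the difference of -0.51 (SE 0.25) did not pass (limma adjusted p = 0.213). Without IFN-beta the difference was -0.05 (interval -0.52 to 0.42), and the effects differed by -0.45 (SE 0.34; adjusted p = 0.643). Ebp, the sterol isomerase, was at 193 ± 22.1 and 166 ± 24.6 with IFN-beta (SD, n = 4 each), a difference of -0.22 (SE 0.12; adjusted p = 0.251). Its libraries spanned 172.8 to 220.2 in wild type and 140.2 to 196.8 in those labelled Morrbid-/-.

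The other enzymes of this stretch (Fdft1, Lss, Tm7sf2, Nsdhl, Hsd17b7 and Sc5d) differed by -0.33 to 0.08 with IFN-beta, none past the test. Without IFN-beta those tested (Fdft1, Lss, Nsdhl, Hsd17b7, Sc5d and Dhcr7) differed by -0.03 to 0.17. Of the exonic bases of Fdft1, squalene synthase, 774 overlap Ctsb on the other strand, and 8.83% of the stretches of Tm7sf2 also occur in Vps51. Dhcr7, the last reductase of the pathway, was at 6.14 to 13.0 normalized counts with IFN-beta.

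**Figure D2:**
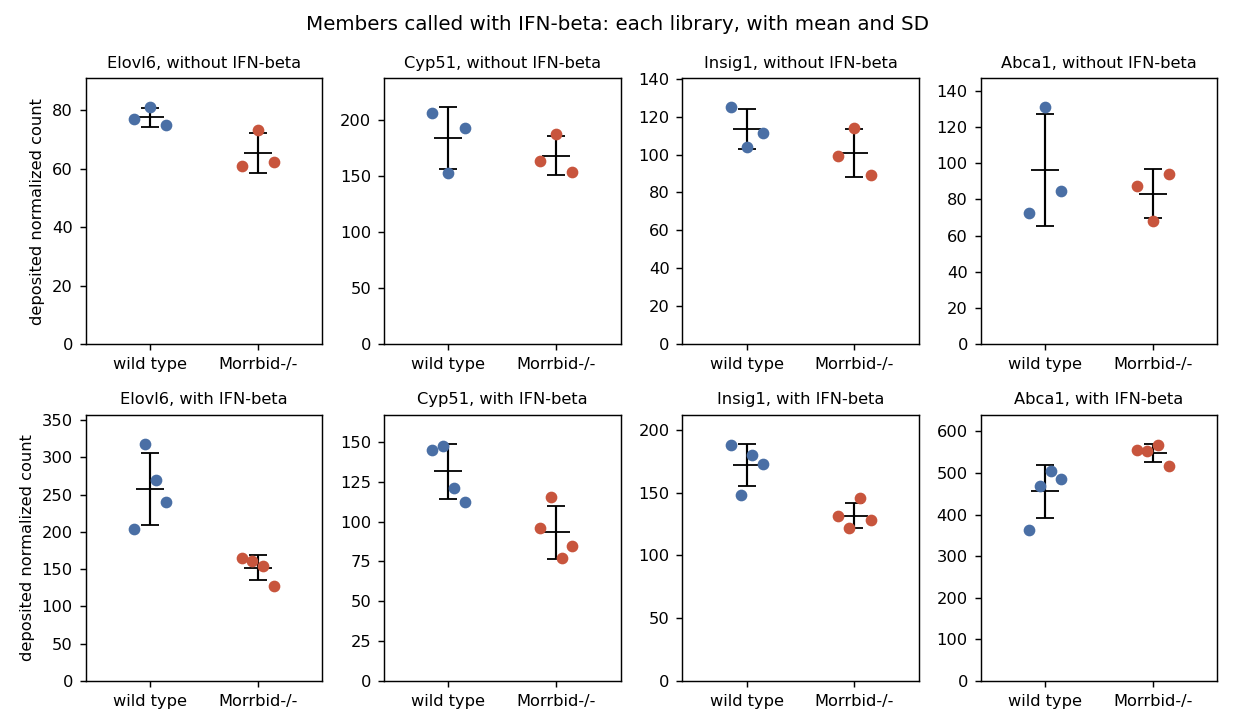
Deposited normalized counts of the members called with IFN-beta, 1 point per library with the group mean and SD, without IFN-beta (top, n = 3 per genotype) and with it (bottom, n = 4); each panel has its own vertical axis from 0. With IFN-beta the genotypes are apart for Elovl6, Insig1 and Abca1 and overlap for Cyp51; without it Elovl6 is the one of the 4 in which they are apart.

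The SREBP control genes had 5 of 5 tested in each setting, with 1 lower in libraries labelled Morrbid-/- with IFN-beta. Insig1, which retains the SCAP-SREBP complex in the endoplasmic reticulum and is itself an SREBP target, held 187.6, 148.5, 179.8 and 172.8 normalized counts in wild type with IFN-beta. The libraries labelled Morrbid-/- held 131.0, 121.9, 145.6 and 128.6, all below the wild-type libraries. The means of 172 ± 16.9 and 132 ± 9.98 (SD, n = 4 each) were -0.38 apart on the log2 scale (SE 0.11), with a limma adjusted p of 0.0289.

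Insig1 did not pass with wild-type replicate 1 (adjusted p = 0.0958), 3 (0.0666) or 4 (0.0502) left out, or with replicate 1 (0.0554), 2 (0.0985) or 4 (0.0569) labelled Morrbid-/- left out. Nor did it pass with the 16S share as a covariate (0.098) or without the trend (0.0726). Its direction was the same in each of these. Without IFN-beta it was at 125.1, 104.1 and 111.6 against 99.3, 113.9 and 89.0, an overlapping pair of groups with a difference of -0.17 and an interval of -0.47 to 0.13. The effects differed by -0.21 (interval -0.57 to 0.15).

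Srebf2, the transcription factor of the cholesterol genes, was lower in all libraries labelled Morrbid-/- without IFN-beta. It held 381.7, 354.8 and 355.4 in wild type and 322.3, 310.4 and 317.2 in those libraries, or 364 ± 15.3 and 317 ± 6.01 (SD, n = 3 each). The difference of -0.20 (SE 0.10) did not pass (limma adjusted p = 0.814). With IFN-beta the groups overlapped, at 379.5 to 431.9 and 359.4 to 457.2, with a difference of -0.03 and an interval of -0.21 to 0.15.

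Srebf1, whose product drives the fatty acid genes, differed by 0.01 without and -0.06 with IFN-beta (interval -0.26 to 0.14). Scap, the escort of both factors, differed by 0.05 and 0.07. Insig2, the other retention protein, differed by -0.19 and -0.08. The intervals with IFN-beta of these 3 genes and of Srebf2 lay within -0.31 to 0.28.

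Of the fatty acid genes, 5 of 6 were tested in each setting. Without IFN-beta 0 were called, and with it 1 was lower in libraries labelled Morrbid-/-. Elovl6, which elongates palmitate to stearate, had the smallest p of the members. With IFN-beta its wild-type libraries held 204.1, 318.5, 269.7 and 240.2 normalized counts and those labelled Morrbid-/- held 164.9, 160.4, 154.6 and 127.7. Every library labelled Morrbid-/- lay below every wild-type library, and the wild-type libraries were the more spread. The mean fell from 258 ± 48.3 to 152 ± 16.7 (SD, n = 4 each), to 0.589 times the wild-type mean. The log2 change of -0.75 (SE 0.12, interval -1.0 to -0.50) had a limma adjusted p of 1.97e-04.

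Elovl6 passed in all 19 alternative analyses of this comparison, with log2 changes of -0.92 to -0.64 and adjusted p from 9.04e-07 to 0.0377. Without IFN-beta it held 76.9, 81.2 and 74.9 in wild type and 60.8, 73.3 and 62.4 in libraries labelled Morrbid-/-. These groups too did not overlap, but the difference of -0.25 (SE 0.16, interval -0.58 to 0.09) did not pass (adjusted p = 0.908). The effects differed by -0.50 (SE 0.19), which did not pass either (adjusted p = 0.26). A share of 2.05% of the 75-base stretches of Elovl6 occurs in other genes.

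The enzymes before Elovl6 in the same pathway were not called. Acly, which makes cytosolic acetyl-CoA from citrate, was at 601.8, 662.5, 664.4 and 691.3 in wild type and 696.4, 701.1, 661.4 and 710.6 in libraries labelled Morrbid-/- with IFN-beta, a difference of 0.08 with an interval of -0.06 to 0.22. Fasn, fatty acid synthase, differed by -0.08 (interval -0.30 to 0.13) and Acaca, acetyl-CoA carboxylase, by 0.09 (interval -0.16 to 0.34). Without IFN-beta these 3 genes differed by 0.05 to 0.12, none past the test. Of the stretches of Acaca, 26.8% occur in other genes, so its counts are uncertain.

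The stearoyl-CoA desaturases follow Elovl6. Scd2 held 10.6, 22.5, 12.8 and 17.6 in wild type and 27.5, 16.5, 27.0 and 24.6 in libraries labelled Morrbid-/- with IFN-beta. The groups overlapped, at 15.9 ± 5.29 and 23.9 ± 5.08 (SD, n = 4 each), and the difference of 0.59 (SE 0.29) did not pass (limma adjusted p = 0.209). Scd1 was at 0 in 9 of the 14 libraries and never above 1.83 normalized counts; its reads numbered 1 and 1 without IFN-beta and 2 and 2 with it, in wild type and in libraries labelled Morrbid-/-. The desaturases share 1.78% (Scd2) and 3.15% (Scd1) of their 75-base stretches with each other or with their relatives.

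Of the 3 sterol transport genes, 1 was called higher in libraries labelled Morrbid-/- with IFN-beta. Abca1, the pump that loads cholesterol onto apolipoprotein A-I, held 362.3, 470.0, 505.6 and 485.3 in wild type and 556.2, 553.6, 567.9 and 516.3 in libraries labelled Morrbid-/-. All of the latter were above all of the former, and wild-type replicate 1 was the lowest by far. The mean rose from 456 ± 64.1 to 549 ± 22.3 (SD, n = 4 each). This is 0.28 on the log2 scale (SE 0.09), with a limma adjusted p of 0.0483.

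This call was the least stable of the 4. It was lost in 11 of 19 alternatives, among them edgeR (adjusted p = 0.0535), DESeq2 (0.0504) and the 16S covariate (0.303), and without wild-type replicate 1 (0.17 on the log2 scale, adjusted p = 0.198). It was also lost without wild-type replicate 2 (0.0729) or without replicates 1 (0.0941), 2 (0.116) or 3 (0.115) labelled Morrbid-/-. Without IFN-beta Abca1 was at 72.4, 131.1 and 84.8 against 87.2, 68.1 and 94.2, overlapping groups with a difference of -0.17 (interval -0.56 to 0.22). That sign rested on wild-type replicate 2, without which it was 0.07 (adjusted p = 0.999). The effects differed by 0.45 (SE 0.21; adjusted p = 0.387). Macrophages are rich in ABCA1. Of 7 myeloid markers 2 were listed with IFN-beta, Itgam and Cybb. Their summed normalized count was 0 to 9.34 in wild type and 2.74 to 9.16 in libraries labelled Morrbid-/-. The part of myeloid cells in the Abca1 values was not tested.

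Abcg1, the exporter that works beside Abca1, was not called: it held 493.2, 543.7, 601.4 and 545.8 against 559.0, 544.4, 556.2 and 509.0 with IFN-beta, a difference of -0.01 with an interval of -0.16 to 0.15. The interval of Abca1, 0.09 to 0.46, overlaps it, and the difference between the 2 genes was not tested. Stard4, a cytosolic sterol carrier and SREBP-2 target, was at 57.2 ± 9.84 and 44.7 ± 14.7 (SD, n = 4 each) with IFN-beta, a difference of -0.39 with an interval of -0.83 to 0.04. Without IFN-beta it differed by 0.22, and the effects differed by -0.61 (SE 0.34; limma adjusted p = 0.496).

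The 6 libraries without IFN-beta fell into high (16.01% to 18.9%) and low (11.6% to 12.8%) shares of 16S rRNA. The high libraries were 2 wild-type and 1 labelled Morrbid-/-, and the low ones 1 and 2. Within the high libraries the members' median difference was 0.10 and within the low ones -0.11. The sign of the difference was not the same within both for 14 of the 27 members tested, Idi1 (0.26 and -0.21) and Sc5d (0.41 and -0.04) among them. For Pmvk the values were -1.04 and -0.79, for Msmo1 -0.35 and -0.44, for Srebf2 -0.19 and -0.18 and for Elovl6 -0.37 and -0.14; the genotypes do not overlap in these 4, which fixes their sign in any split. The part of this share in the results was not tested beyond the covariate fits. With 1 library on one side of each split, these values have no replicate check.

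Beyond the 31 members, 88 genes of neighbouring lipid pathways in 6 lists were followed, of which 78 were tested in each setting. Without IFN-beta 0 of the 78 were called, and with it 11 were: 3 higher and 8 lower, or 14.1% of the 78 beside 10.1% of all genes. The interaction called 0 of 77, where 1.33% of all genes were called. Calls went in both directions in the sterol list and in the LXR and oxysterol list, and were lower in the 3 other lists that had any.

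With IFN-beta, 14 genes of sterol synthesis, uptake and storage that are no members were tested. Of these, 1 was higher and 3 were lower in libraries labelled Morrbid-/-. Lipa, the lysosomal acid lipase that frees cholesterol from its esters, spanned 197.1 to 237.6 in wild type and 128.6 to 144.7 in libraries labelled Morrbid-/-, a change of -0.63 (SE 0.10; limma adjusted p = 2.29e-04). Nceh1, a cholesteryl ester hydrolase, went from 162 ± 29.4 to 107 ± 20.0 (SD, n = 4 each), a change of -0.60 (adjusted p = 0.00979). Npc2, which hands cholesterol out of the lysosome, rose by 0.28 (adjusted p = 0.0151), from 789 ± 89.5 to 957 ± 40.9. Lbr, the lamin B receptor and a sterol reductase, fell by 0.23 (adjusted p = 0.0399).

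In the LXR and oxysterol list 11 genes were tested, and with IFN-beta 2 rose and 1 fell in libraries labelled Morrbid-/-. Ncor1, a corepressor of nuclear receptors, rose by 0.19 (limma adjusted p = 0.0235), and Gpr183, the receptor for oxysterols that guides lymphocytes, fell by 0.27 (adjusted p = 0.0475). The receptor gene Nr1h2 (LXR-beta) was at 373 ± 28.4 and 438 ± 43.5 (SD, n = 4 each), a difference of 0.23 that did not pass (adjusted p = 0.0985).

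Among 17 other genes of fatty acid synthesis and desaturation 2 fell in libraries labelled Morrbid-/- with IFN-beta. Hacd3, a dehydratase of the elongation cycle in which Elovl6 acts, spanned 197.2 to 229.4 in wild type and 114.9 to 193.3 in libraries labelled Morrbid-/-, a change of -0.50 (SE 0.13; limma adjusted p = 0.0117). Elovl5, the elongase of polyunsaturated fatty acids, fell by 0.22 (adjusted p = 0.0297), with no overlap between 932.2 to 1032 and 786.2 to 880.3. Of 13 genes of the isoprenoid branches Ggps1, geranylgeranyl diphosphate synthase, fell by 0.25 (adjusted p = 0.0412). Of 12 genes of SREBP processing and turnover Rnf139, a sterol-sensing ubiquitin ligase also called TRC8, fell by 0.27 (adjusted p = 0.0119), with no overlap between genotypes. Of 11 genes of fatty acid oxidation 0 were called; the smallest p were those of Acadl (0.16, adjusted p = 0.118) and Acadvl (-0.21, adjusted p = 0.462).

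The call of Lipa passed in all 19 alternatives, and those of Rnf139 and Hacd3 in 18. Removing 1 library could end the call of the other genes named. The highest limma adjusted p after such a removal was 0.057 for Nceh1 (replicate 2 labelled Morrbid-/-), 0.0679 for Npc2 (wild-type replicate 2), 0.107 for Ncor1 (replicate 2 labelled Morrbid-/-), 0.101 for Elovl5 (wild-type replicate 2), 0.13 for Ggps1 (wild-type replicate 1), 0.126 for Lbr (replicate 1 labelled Morrbid-/-) and 0.152 for Gpr183 (replicate 4 labelled Morrbid-/-). For Nceh1 this was the only such library. Npc2 was also lost without wild-type replicate 3, Ncor1 without wild-type replicate 1, Elovl5 without replicates 1, 2 or 3 labelled Morrbid-/-, and Gpr183 without wild-type replicates 1, 2 or 4 or replicate 3 labelled Morrbid-/-. Ggps1 was also lost without wild-type replicates 2 or 3 or replicates 1, 2 or 4 labelled Morrbid-/-, and Lbr without wild-type replicates 2, 3 or 4 or replicates 2 or 3 labelled Morrbid-/-.

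Without IFN-beta the smallest p of each list belonged to Acat1 (-0.51, limma adjusted p = 0.699), Coq2 (0.47, 0.606), Hdlbp (0.20, 0.814), Mylip (-0.34, 0.713), Acsl5 (0.26, 0.855) and Decr1 (0.70, 0.627), none past the test. Next in their lists were Lrp8 (0.69, 0.767), Icmt (-0.28, 0.934), Rxra (-0.51, 0.814), Acss2 (-0.38, 0.878) and Hadha (-0.17, 0.878). For the change of the effect between settings the smallest were Osbp (0.40, limma adjusted p = 0.132), Coq2 (-0.76, 0.0784), Mbtps2 (-0.65, 0.307), Mylip (0.44, 0.157), Hacd3 (-0.61, 0.126) and Hadha (0.16, 0.592). Lipa (-0.63, 0.198), Ggps1 (-0.20, 0.589), Fbxw7 (0.26, 0.456), Acsl5 (-0.37, 0.393) and Decr1 (-0.51, 0.609) followed them.

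**Figure D3:**
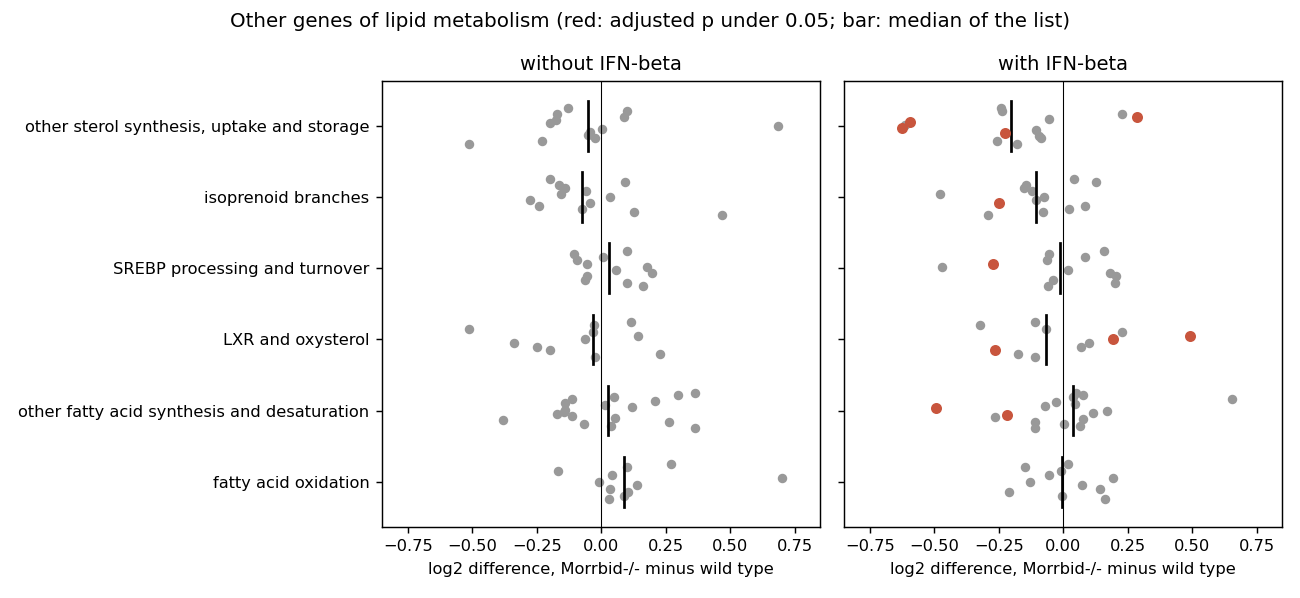
Log2 difference (Morrbid-/- label minus wild type) of the tested genes of 6 neighbouring lipid lists, 1 point per gene, without IFN-beta (left) and with it (right); red points passed at an adjusted p of 0.05 and black bars are list medians. The 11 red points, 3 to the right of 0 and 8 to the left, are all in the panel with IFN-beta.

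Levels were then set side by side between the settings in RPM, each library's reads over the genes listed in both tables, scaled to 1 total. These were not tested: stimulation, table and depth cannot be told apart, and whether both tables were counted with the same settings is not given in the sources used here. On this scale the median gene was itself lower with IFN-beta, by -0.53 (log2) in wild type and -0.51 in libraries labelled Morrbid-/-, and 58.9% and 58.5% of 9078 genes had all libraries with IFN-beta below all libraries without. The same 26 members, those averaging 10 or more in each table, had a median of -1.15 in wild type and -1.08 in libraries labelled Morrbid-/-. In wild type 19 of them were lower in all libraries with IFN-beta and 3 higher, and in libraries labelled Morrbid-/- 18 and 3. Of the 9078 genes, 10.18% in wild type and 10.24% in libraries labelled Morrbid-/- were higher in all libraries with IFN-beta. The members' share on the higher side is near these.

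The lowest ratio belonged to Idi1. It held 71.5, 44.6 and 69.4 RPM in wild type without IFN-beta and 3.11, 1.52, 2.07 and 2.89 with it, a ratio of 0.0388, and 0.033% of genes had a lower one. In libraries labelled Morrbid-/- it held 68.1, 71.7 and 50.5 without and 3.50, 1.82, 2.34 and 1.63 with IFN-beta, a ratio of 0.0366. The gap was present in both genotypes, with no overlap between the settings. Of the 75-base stretches of Idi1, 16.7% occur in other genes, and 323 of its exonic bases overlap a gene on the other strand; their part in the gap was not tested.

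Acaca followed, at 107.6, 106.1 and 122.1 RPM in wild type without IFN-beta and 20.6, 16.2, 16.6 and 19.5 with it, a ratio of 0.163. It also carries 26.8% shared stretches, and their part was not tested. Next in wild type were Scd2 (0.206), Dhcr7 (0.207), Cyp51 (0.254), Hsd17b7 (0.256), Sqle (0.306), Fasn (0.356), Pmvk (0.363) and Srebf2 (0.396). After them came Msmo1 (0.396), Lss (0.401), Mvd (0.406), Fdps (0.429), Stard4 (0.448) and Hmgcs1 (0.455). Of all genes, 18.5% had a lower ratio than Hmgcs1. The members named span the mevalonate, sterol and fatty acid steps, a sterol carrier and the transcription factor of the sterol genes. Insig1 had a ratio of 0.540, which is -0.36 (log2) relative to the median gene.

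The export genes stood on the other side. Abcg1 was at 45.6, 65.4 and 52.8 RPM in wild type without IFN-beta and 72.2, 80.7, 89.0 and 80.8 with it, a ratio of 1.48. Abca1 was at 28.7, 53.5 and 37.6 without and 53.0, 69.7, 74.8 and 71.9 with, a ratio of 1.69 in wild type, where the highest library without IFN-beta lay just above the lowest with it. In libraries labelled Morrbid-/- its ratio was 2.33, from 35.3, 29.8 and 42.2 to 84.8, 84.7, 86.8 and 77.0, with no overlap. Insig2 (1.27) and Ebp (1.47) were also higher in all wild-type libraries with IFN-beta, while Srebf1 (0.943) overlapped between settings and was 0.44 (log2) above the median gene in wild type.

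For Elovl6, the wild-type level was 30.4, 33.1 and 33.2 RPM without IFN-beta and 29.9, 47.2, 39.9 and 35.6 with it, a ratio of 1.18. In libraries labelled Morrbid-/- it was 24.6, 32.1 and 28.0 without and 25.2, 24.5, 23.6 and 19.0 with, a ratio of 0.818. Relative to the median gene, which was itself lower with IFN-beta on this scale, Elovl6 was 0.77 (log2) higher in wild type and 0.22 higher in libraries labelled Morrbid-/-. The libraries of the settings overlapped in both genotypes, and the interaction term given above is the test of this contrast.

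**Figure D4:**
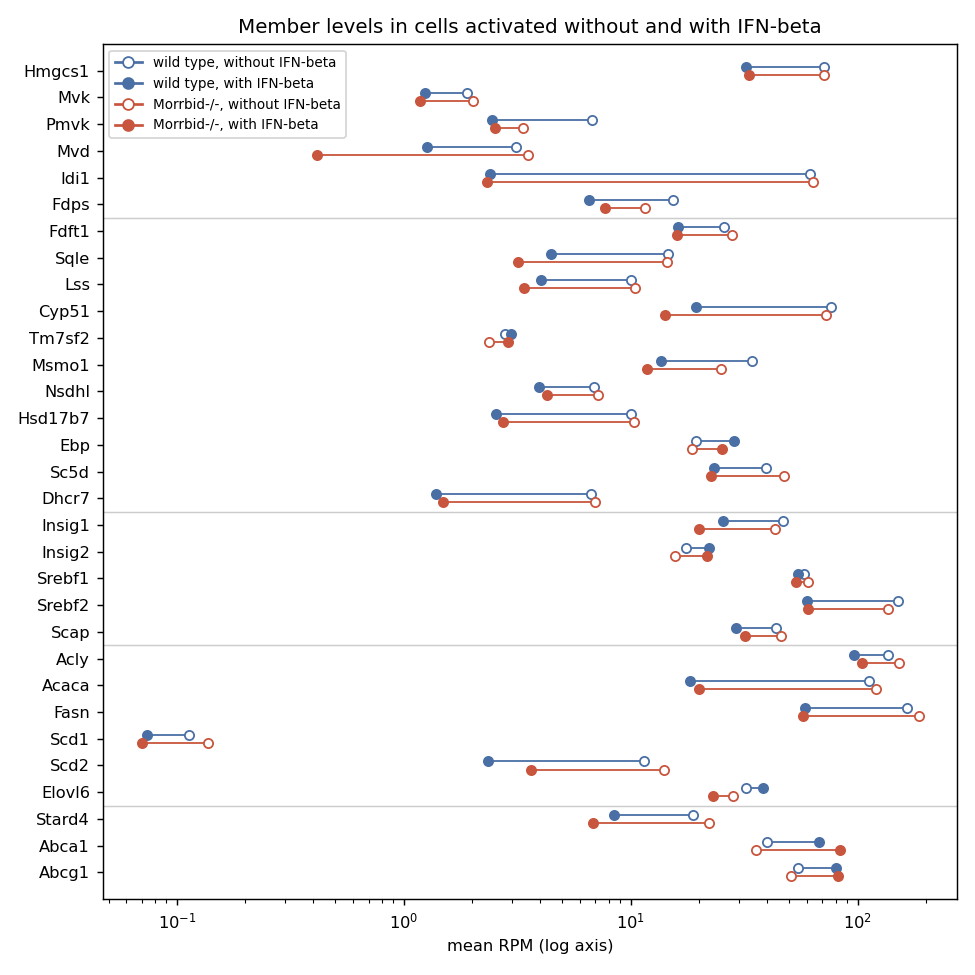
Mean RPM of each member on a log axis, with open points for cells activated without IFN-beta and filled points for cells activated with it, blue for wild type (n = 3 and 4 libraries) and red for the Morrbid-/- label (n = 3 and 4). Most filled points lie to the left of their open points in both genotypes, with Idi1 the widest gap. Abca1, Abcg1, Ebp, Insig2 and Tm7sf2 lie to the right in both genotypes, and Elovl6 in wild type only.

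Per kilobase of exon (RPKM), so that genes can be compared with each other, the highest wild-type levels without IFN-beta were those of Srebf2 (29.8 ± 1.24 RPKM), Acly (29.4 ± 3.58), Idi1 (20.4 ± 4.94), Hmgcs1 (20.4 ± 1.93) and Cyp51 (19.4 ± 3.13; SD, n = 3). Srebf2 and Acly did not differ beyond their spread, nor did the 3 that follow. With IFN-beta the order opened with Acly (21.0 ± 1.32), Ebp (16.3 ± 1.87), Srebf1 (12.7 ± 1.92), Abcg1 (11.8 ± 1.00) and Srebf2 (11.8 ± 0.648; SD, n = 4), of which the last 3 were within their spread. Idi1 was at rank 25 of 31 there. Scd1 was last in both settings, at 0.0233 and 0.0153 RPKM.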

How the data were processed

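Total RNA of 14 libraries was sequenced as pairs of 75 bases, per the labels' protocols. Per the submitters' processing notes the tools were Trimmomatic, STAR 2.5, featureCounts and DESeq2, with GRCm38 and mm10 as builds of unstated role; the sources used here give neither annotation nor strand setting. The authors deposited 1 table of normalized counts per setting, which is a never negative signal. The tables were normalized separately, so genotypes were tested within a table. Every deposited signal value was a whole number of reads (within 0.01) times 1 step per library, for 100% of values, and the recovered reads gave depth, RPM and the count tests.

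The members and lists were chosen with earlier results of these data known. The test was limma 3.58.1 (R 4.3.3) with a mean-variance trend, on log2 of the normalized count plus 1, for genes averaging 10 or more, with Benjamini-Hochberg adjustment over all genes tested and a threshold of 0.05; fold changes on that scale understate low genes. The recovered reads were also tested with edgeR 4.0.16 (quasi-likelihood) and DESeq2 1.42.0; edgeR called 59 genes without IFN-beta, 1011 with IFN-beta and 114 for the difference. Other alternatives were pseudocounts of 0.5 and 5, a minimum mean of 50 or none, equal totals, quantile normalization, no trend, a replicate block, leaving out each library and, chosen after seeing the data, the 16S rRNA share as a covariate. Full values are given for called members and for the 4 others with the smallest p in each comparison; in other lists, for up to 4 called genes or else the 2 with the smallest p; Nr1h2 and other members were named beyond this rule, after their values were seen. Some genes that met the rule are not reported here, though they stay in all counts. The analysis was tested on simulated data. Same-group library pairs differed by more than sampling noise (chi-square per degree of freedom 1.88 to 9.23 over 18 pairs), so each library counted once. Coordinates and promoters are RefSeq's for GRCm38.p6, and exonic lengths and shared 75-base stretches are from GENCODE vM21.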

Additional observations from a re-analysis of the deposited data

Results flagged for a closer look

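Of 62 checks of a member within a group of 4 libraries, 1 found a library standing far from the others: Scd1 in replicate 1 labelled Morrbid-/- with IFN-beta held 1.833 normalized counts, from 2 reads, and the other 3 libraries held 0. Chance alone gives about 1 such finding in 20 groups.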

How the results depend on the processing

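Over 35 results for single genes and 665 alternative values, 592 kept their direction and side of the threshold, 72 kept the direction but no longer passed, 0 newly passed and 1 changed sign (Abca1 without IFN-beta, -0.35 to 0.071 over the libraries left out in turn, positive without wild-type replicate 2). Counts moved as follows, with the cause not tested. Without the trend 17 genes (13 higher, 4 lower) were called without IFN-beta, 305 (171 and 134) when it was added, 66 (15 and 51) for the difference, and 1 member with IFN-beta (Elovl6). With the 16S share as a covariate 103 genes were called without IFN-beta, and 1 member with it (Elovl6). Leaving out each library gave 39 to 70 genes without IFN-beta, 609 to 1019 when it was added (each lowest without replicate 2 labelled Morrbid-/-), 97 to 143 for the difference, and 1 to 3 members with IFN-beta (1 without wild-type replicate 1, 3 without wild-type replicate 3 or 4, and 2 without any other), where fewer libraries were fitted. Abca1 also missed the threshold with no filter (adjusted p = 0.0551) and with quantile normalization (0.0758). Equal totals shifted the median gene by 0.04 and made 68.0% of calls with IFN-beta higher, against 52.0%.

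Libraries with the same replicate number had r = -0.021 to 0.204 over 3 pairs without IFN-beta, with 4 of 6 libraries closest to their own number. With IFN-beta they had r = 0.003 to 0.141 over 4 pairs, with 6 of 8. Libraries of different numbers had r = -0.2 to 0.059 without it and -0.079 to 0.037 with it. Same-numbered libraries were thus more often the closer ones, and a pairing is not excluded. The main test did not use it, and pairs across the settings were not checked. The fit with the replicate block called 169 genes without IFN-beta, 1421 when it was added, 311 for the difference, and the same 4 members. Depth limits Mvk, Mvd, Tm7sf2, Dhcr7, Scd1 and Pmvk most.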
